A study of Canis lupus familiaris with 6 samples.

Results

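The genes described here are those that copy DNA: the helicase, the origin-binding and licensing factors, the polymerases, the sliding clamp and its loader, and the enzymes that supply deoxynucleotides. They were chosen by symbol from a list of 45 genes, of which 44 were found among the 35993 genes of the deposited gene table; POLD2 was not analysed here. All 44 passed the filter on low counts and were among the 14708 genes tested. Every library came from CPEK, a line of canine progenitor epidermal keratinocytes labelled wild type and grown in medium with serum. The treated cultures (dCAMP) were exposed directly to cold atmospheric microwave plasma carried by argon for 30 s, and the control cultures to the gas without plasma. In both groups the medium was replaced after 15 min, and RNA was collected 24 h later. There were 3 gas libraries and 3 dCAMP libraries, and the labels do not say whether the cultures came from separate experiments. The study's methods speak of independent experiments for its data in general, without naming the sequencing, so the tests measure only the spread between these samples. A single line is a model of 1 source of keratinocytes, kept in culture and without the other cells of skin.

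DNA replication begins in G1 phase, when the origin recognition complex, CDC6 and CDT1 load the ring of MCM2 to MCM7 onto origins. In S phase CDC45 and the GINS proteins join this ring to form the active helicase, primase and DNA polymerase alpha start each strand, and polymerases delta and epsilon extend it while held by the PCNA clamp. Many of these genes are transcribed under the control of E2F factors at the entry into S phase, so in skin their transcripts are known from the dividing basal layer and are low in differentiated layers.

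Per library, 45167120, 53166657 and 54082634 counts fell on genes in gas 1, gas 2 and gas 3, and 46479197, 43084921 and 44692385 in dCAMP 1, dCAMP 2 and dCAMP 3. The replication genes had between 171 and 30083 counts per library, the lowest being ORC4 in gas 1. Levels are given below as CPM, the counts after scaling to the TMM library size, which compare 1 gene across libraries. Levels of different genes are compared as FPKM, which the authors also scaled to transcript length.

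The gas libraries differed from each other far more than the dCAMP libraries did. Pairs of gas libraries differed by a chi-square of 85.0 to 319 per degree of freedom over genes, and pairs of dCAMP libraries by 6.5 to 10.2, where sampling noise gives values near 1. Gas 1 stood farthest from the dCAMP libraries, at 327 to 355, and gas 3 stood nearest to them, at 15.96 to 25.6. For genes in which gas 1 or gas 3 stood apart, values without that library follow.

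The labelled cell type was checked against its markers. KRT5 and KRT14, the keratin pair of basal keratinocytes, had 10287 ± 1075 and 9960 ± 1332 FPKM (SD, n = 3) in the gas control and 8892 ± 357 and 8057 ± 280.3 FPKM in dCAMP-treated cells. Of the 12 keratinocyte markers, 11 were tested and 1, KRT1 of the suprabasal layers, was listed at 0 in all 6 libraries. KRT10, also a keratin of the suprabasal layers, was present, with 12.2 ± 2.77 FPKM in the gas control and 12.7 ± 0.387 FPKM in dCAMP-treated cells. The summed FPKM of this list was 25768, 23978 and 20416 in gas 1, gas 2 and gas 3, against 20410, 20449 and 19247 in the dCAMP libraries, with KRT5 as its most abundant gene. Gas 3 thus lay within the dCAMP range and the other 2 gas libraries above it, but KRT5 and KRT14 make up most of this sum. The 11 markers differed in direction: KRT5 and KRT14 were lower with an unadjusted p under 0.05, at log2 fold changes of −0.21 and −0.30, and DSG3 and ITGA6, adhesion genes of keratinocytes, were higher, at 0.52 and 0.35. In DSG3, ITGA6, DSC3 and CDH1 all dCAMP libraries lay above all gas libraries, as in 19% of all genes tested. In KRT5 and KRT14 they lay below, as in 20.9%, and the part of these markers in the results was not tested. The 7 fibroblast markers summed to 0.839 to 0.972 FPKM with COL3A1 the highest, and DCN, LUM and PDGFRB were at 0. The 5 melanocyte markers summed to 0.120 to 0.689 FPKM with MLANA the highest, and TYR, TYRP1 and DCT were at 0. The 4 leukocyte markers summed to 0.242 to 0.908 FPKM with CD68 the highest, and PTPRC, CD3E and CSF1R were at 0. The 3 endothelial markers summed to 1.19 to 1.98 FPKM with VWF the highest, and PECAM1 was at 0.

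Against the gas control, dCAMP-treated cells had lower levels of 16 replication genes by the unadjusted test, but 0 of the 44 passed after adjustment over all genes tested, and the other 28 did not pass either test. The 16 genes were MCM2, MCM3, MCM5, MCM7, ORC1, CDC6, CDT1, GINS3, POLA2, POLD1, POLE, RFC2, FEN1, LIG1, TK1 and UHRF1, with levels in dCAMP-treated cells of 0.685 to 0.826 times those of the gas control. In each of the 16, all 3 dCAMP libraries lay below all 3 gas libraries, and 0 replication genes had the reverse arrangement. By edgeR's quasi-likelihood test, 16 of 44 replication genes (36.4%) were lower with an unadjusted p under 0.05, against 13.9% of all genes tested, and 0 were higher, against 6.81%. With Benjamini-Hochberg adjustment over all genes tested, 0 replication genes passed 0.05, where the share of all genes was also 0%. Groups that did not overlap were found in the lower direction for 36.4% of the replication genes against 20.9% of all genes tested, and in the higher direction for 0 against 19%. The count of 0 rests on gas 3, since without it 18 replication genes did not overlap in the lower direction, against 32.6% of all genes, and 12 in the higher direction, against 35.9%. With a 2-fold difference required besides an unadjusted p under 0.05, edgeR called 0 replication genes, against 1.09% of all genes. The adjusted p of the 16 genes was 0.221 to 0.223 in edgeR, and below each gene is called lower where its unadjusted p was under 0.05. The median log2 fold change, taken as dCAMP over gas, was −0.10 for the 44 genes, beside 0.03 over all genes tested. For the 44 genes it was −0.16 without gas 1 and −0.07 without dCAMP 1, the ends of its range without 1 library. Whether fewer cells were in S phase or each cell held less of these transcripts cannot be told apart in RNA from whole cultures.

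**Figure D1:**
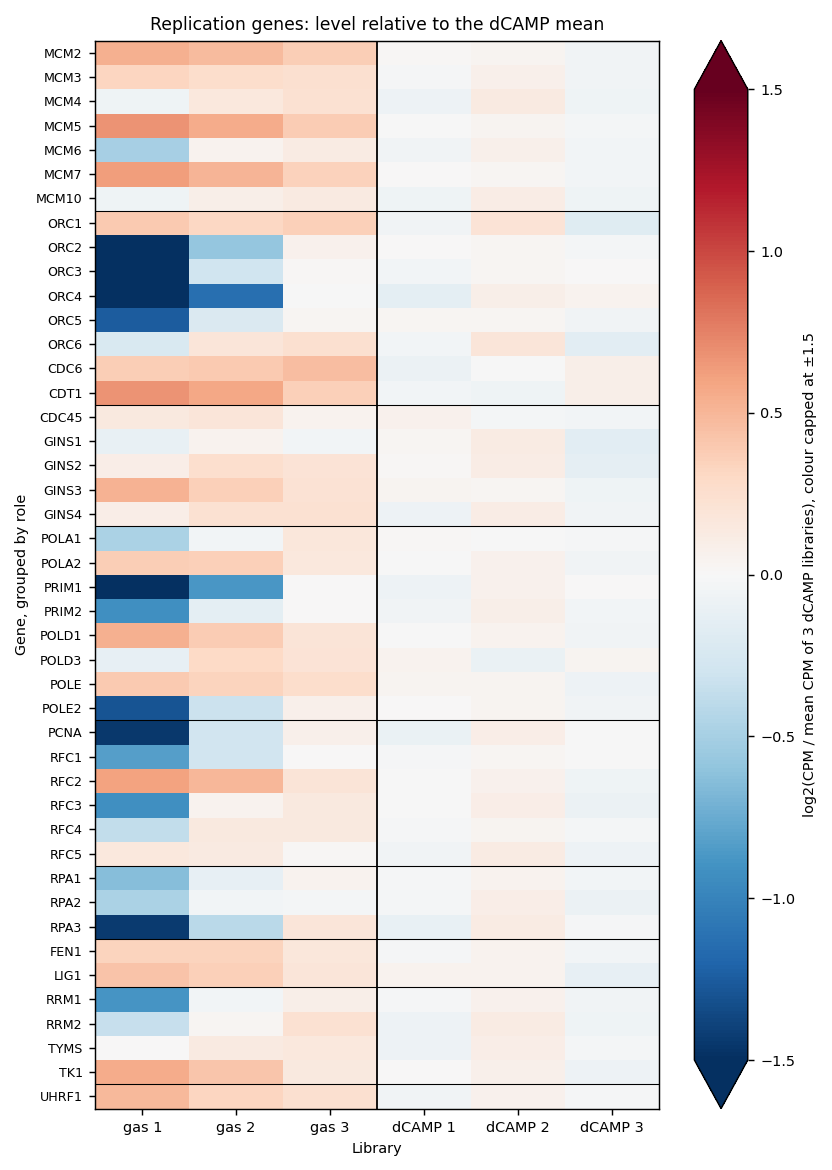
Each row is a replication gene and each column a library; colour gives the log2 of its CPM over the mean CPM of the 3 dCAMP libraries, with horizontal lines between roles. Genes such as MCM5, MCM7 and CDT1 are red in all 3 gas libraries, and genes such as ORC2, ORC4 and PRIM1 are blue in gas 1 and gas 2 but close to white in gas 3.

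The count of 16 depended on single libraries. It was 8 without dCAMP 3, where 4.7% of all genes were lower, 11 without dCAMP 1 (5.75%), 11 without gas 2 (5.82%), 16 without dCAMP 2 (6.57%) and 19 without gas 1 (11.8%), and 0 replication genes were higher in these fits, where 2.16%, 2.48%, 2.43%, 3.04% and 8.75% of all genes were. The 8 genes lower without dCAMP 3 were MCM2, MCM5, MCM7, CDC6, CDT1, POLE, RFC2 and UHRF1. Each of them was lower in every fit without 1 library, and the rest of the 16 lost the call in at least 1. The genes added without gas 1 were MCM4, GINS4 and POLD3. When gas 3 was left out, all of the 16 genes were lower, against 25.5% of all genes. In the higher direction were 4 others, ORC4, PRIM1, RFC1 and RPA3, against 23.8%. In that fit, adjusted p-values under 0.05 were reached by 15 replication genes in the lower direction, against 18.1% of all genes tested, and by 1 gene, PRIM1, in the higher direction, against 15%. DESeq2, the tool the study used, gave 6 lower replication genes with an adjusted p under 0.05 (MCM2, MCM5, MCM7, CDC6, CDT1 and POLE), against 1.98% of all genes with an adjusted p. With limma's voom and sample quality weights, 25 were lower and 8 higher by the adjusted p, where 28.2% and 32.6% of all genes were called.

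The MCM helicase had the highest share of lower genes among the larger groups, with 4 of its 7 members lower at an unadjusted p under 0.05 (57.1% against 13.9% of all genes) and 0 higher (against 6.81%). MCM2 to MCM7 form the ring that unwinds DNA at the fork, and MCM10 helps to activate it. MCM5 (gene ID 610519, at chr10:28721421-28738457 in CanFam3.1) had 303, 279 and 247 CPM in gas libraries 1, 2 and 3 and 188, 195 and 185 CPM in dCAMP libraries 1, 2 and 3. The lowest gas library lay well above the highest dCAMP library, and the log2 fold change was −0.54 ± 0.10 (SE, adjusted p = 0.221 from edgeR). MCM7 (gene ID 479737, at chr6:9492654-9499846) had 350.0, 325 and 289.6 CPM in the gas libraries and 228, 233 and 221 CPM in the dCAMP libraries. Its groups were as clearly apart, with a log2 fold change of −0.50 ± 0.09 (SE). The MCM7 locus also holds the microRNA genes MIR106B, MIR93 and MIR25 and overlaps AP4M1, and how reads on overlapping genes were counted is not given in the sources used here.

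MCM2 had 166, 159 and 148 CPM in the gas libraries and 116, 118 and 111 CPM in the dCAMP libraries, with a log2 fold change of −0.46 ± 0.08 (SE). MCM3 had 186, 178 and 174 CPM against 146, 156 and 143 CPM, with a log2 fold change of −0.28 ± 0.08 (SE). Both genes kept their groups apart, MCM3 by the smaller margin. MCM4 and MCM6, partners in the same ring, did not pass the test with all libraries. MCM4 had 302 ± 31.5 CPM in the gas control and 279 ± 22.9 CPM in dCAMP-treated cells (SD, n = 3 in each), and MCM6 had 302 ± 66.2 CPM and 321 ± 15.9 CPM. Gas 1 was the lowest gas library for both, at 267 CPM for MCM4 and 227 CPM for MCM6, and without it the log2 fold changes were −0.21 for MCM4 and −0.10 for MCM6. In that edgeR fit MCM4 had an unadjusted p under 0.05, as did 11.8% of all genes in the lower direction. Its adjusted p was 0.232. MCM10 had a log2 fold change of −0.05 ± 0.10 (SE), with −0.14 to −0.02 when each library was left out in turn.

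**Figure D2:**
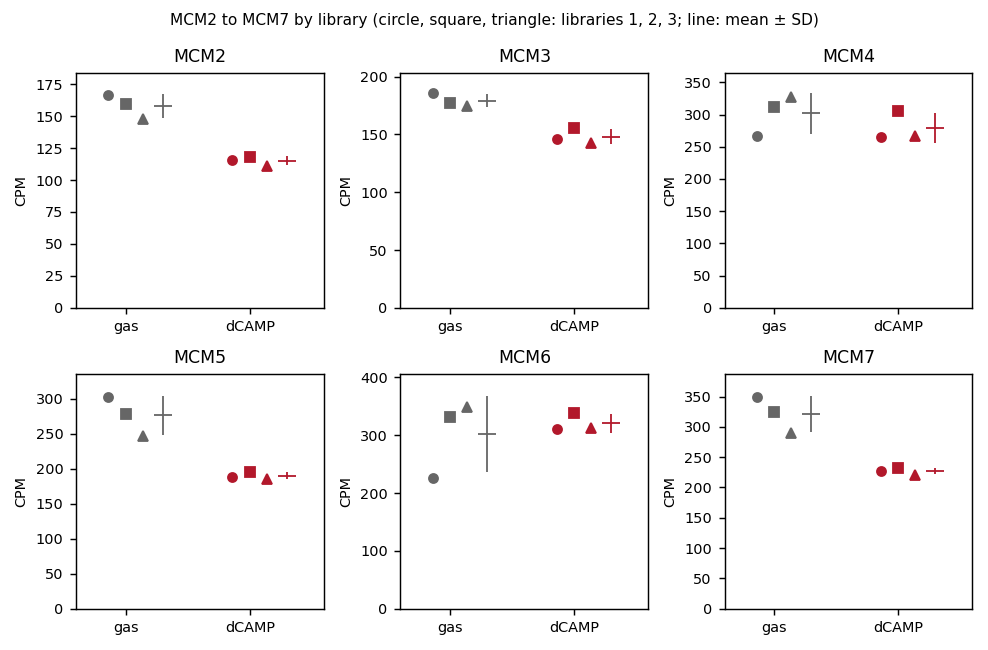
CPM of MCM2 to MCM7 in each gas and dCAMP library, with symbols for libraries 1, 2 and 3 and a line for the mean ± SD (n = 3); each panel starts at 0. MCM2, MCM3, MCM5 and MCM7 have all dCAMP libraries below all gas libraries, while MCM4 and MCM6 overlap.

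Since the ring holds its 6 subunits in equal number, their transcript levels per length were also set side by side. In gas 1 and gas 2 MCM7 had the highest FPKM of the 6, at 135 and 122, and in gas 3 and the 3 dCAMP libraries MCM6 had the highest, at 97.4 to 109. MCM2 was the lowest in all 6 libraries, with 36.7 to 42.8 FPKM in the gas libraries and 27.9 to 29.7 FPKM in the dCAMP libraries. The order of MCM5 and MCM4 differed in the same way, with MCM5 above MCM4 in gas 1 and gas 2 and below it in the other 4 libraries.

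Among the origin recognition and licensing genes, the loading factors CDT1 and CDC6 and the subunit ORC1 were lower in dCAMP-treated cells, and ORC2 to ORC6 did not pass the test. The 3 lower genes were 37.5% of the 8, against 13.9% of all genes. CDT1 (gene ID 479616, at chr5:64566035-64570361), which brings the MCM ring to the origin, had 44.9, 42.2 and 36.2 CPM in the gas libraries and 27.4, 27.0 and 30.0 CPM in the dCAMP libraries. Its log2 fold change of −0.55 ± 0.12 (SE) was the lowest of the 44 genes. CDC6, the ATPase that acts with CDT1, had 78.0, 79.5 and 83.2 CPM in the gas libraries and 56.8, 60.0 and 64.3 CPM in the dCAMP libraries, with a log2 fold change of −0.41 ± 0.09 (SE). ORC1, the ORC subunit whose protein is known to be removed after origins fire, had 71.0, 67.1 and 69.4 CPM against 52.3, 62.2 and 47.7 CPM, with a log2 fold change of −0.36 ± 0.12 (SE). For CDC6 and ORC1 the 3 gas libraries lay close together, with SDs of 2.69 and 1.96 CPM, so that gas 1 did not stand apart in these 2 genes.

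In ORC2 to ORC5 gas 1 was far below every other library. ORC4 (gene ID 476141, at chr19:49728812-49815599), whose locus overlaps MBD5, had 3.69, 23.6 and 51.4 CPM in gas libraries 1, 2 and 3 and 46.6, 55.0 and 53.7 CPM in the dCAMP libraries. Gas 3 lay among the dCAMP libraries, and the log2 fold change was 0.98 ± 0.79 (SE). It was 0.45 without gas 1 and 1.88 without gas 3, and its adjusted p was 0.416 with all libraries in edgeR. ORC2 had 11.6, 45.4 and 71.4 CPM in the gas libraries and 68.3, 69.3 and 66.7 CPM in the dCAMP libraries, with a log2 fold change of 0.67 ± 0.57 (SE), and ORC3 had 8.58, 23.9 and 29.7 CPM against 28.6, 29.8 and 29.5 CPM, with a log2 fold change of 0.50 ± 0.42 (SE). In both genes gas 3 reached the highest level of the 6 libraries or came within the dCAMP range. ORC5 had the same arrangement, with 22.4 ± 9.05 CPM in the gas control and 29.1 ± 0.958 CPM in dCAMP-treated cells, and ORC6 had 37.4 ± 6.23 and 35.3 ± 4.27 CPM (SD, n = 3 in each). Without gas 1 the log2 fold changes were 0.21 for ORC2, 0.11 for ORC3 and 0.07 for ORC5, and without gas 3 they were 1.21, 0.81 and 0.59. In ORC6 gas 1 was the lowest library by a small margin, at 30.3 CPM beside 31.7 CPM in dCAMP 3, and its log2 fold change was −0.08, or −0.23 without gas 1.

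CDC45 and GINS1 to GINS4, which complete the helicase, had log2 fold changes of −0.37 to 0.03. GINS3 was the 1 member with an unadjusted p under 0.05 (20% of the 5, against 13.9% of all genes). It had 27.1, 24.3 and 22.1 CPM in the gas libraries and 19.5, 19.3 and 18.1 CPM in the dCAMP libraries, with no overlap and a log2 fold change of −0.37 ± 0.11 (SE). CDC45 had 36.7 ± 1.57 CPM in the gas control and 33.6 ± 1.43 CPM in dCAMP-treated cells, and its groups overlapped in a narrow range. The other GINS genes had log2 fold changes of −0.19 for GINS4, −0.18 for GINS2 and 0.03 for GINS1, and the last was −0.02 without gas 1.

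The catalytic subunits of polymerases delta and epsilon were lower in dCAMP-treated cells, while the primase genes were lowest in gas 1. POLD1, the catalytic subunit of polymerase delta, had 64.6, 58.1 and 50.9 CPM in the gas libraries and 44.2, 46.2 and 43.1 CPM in the dCAMP libraries, with a log2 fold change of −0.38 ± 0.12 (SE). POLE, the catalytic subunit of polymerase epsilon, had 139, 133 and 127 CPM against 109, 108 and 99.9 CPM, with a log2 fold change of −0.33 ± 0.08 (SE) that was −0.60 after the correction for gene length. POLA2, the accessory subunit of polymerase alpha, had 118, 117 and 102 CPM against 91.1, 95.2 and 87.9 CPM, with a log2 fold change of −0.30 ± 0.09 (SE). All 3 genes had every dCAMP library below every gas library, and the POLE locus overlaps P2RX2. They were 37.5% of the 8 polymerase and primase genes, against 13.9% of all genes. POLE was lower in every fit without 1 library, whereas POLD1 and POLA2 lost the call without gas 2, without dCAMP 1 and without dCAMP 3.

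PRIM1 (gene ID 607309, at chr10:951888-975966), the catalytic subunit of primase, had 10.7, 25.5 and 47.1 CPM in the gas libraries and 44.6, 49.0 and 46.9 CPM in the dCAMP libraries. Gas 1 and gas 2 were the low libraries and gas 3 was within the dCAMP range. The log2 fold change was 0.75 ± 0.48 (SE), 0.35 without gas 1 and 1.33 without gas 3, and the adjusted p was 0.337 with all libraries and 0.0405 without gas 3 in edgeR, and it spanned 0.0405 to 0.517 when each library was left out in turn. Its locus overlaps HSD17B6. PRIM2, POLE2 and POLA1 had log2 fold changes of 0.30, 0.41 and 0.09, which were 0.05, 0.10 and −0.09 without gas 1 and 0.44, 0.68 and 0.19 without gas 3. POLD3 had −0.14, or −0.27 without gas 1. POLA1, on the X chromosome, has the longest locus of the 44 genes, with 310086 bases, and its log2 fold change was −0.10 after the correction for gene length.

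The clamp and its loader were split in the same manner, with 1 of 6 genes lower (16.7% against 13.9% of all genes). PCNA (gene ID 477166, at chr24:16478774-16485992), the ring that holds polymerases on DNA and a common marker of proliferating cells, had 80.6, 180.2 and 231 CPM in the gas libraries and 205, 235 and 218 CPM in the dCAMP libraries. Gas 1 was far below the rest, gas 2 lay between, and gas 3 lay within the dCAMP range. Its log2 fold change was 0.42 ± 0.35 (SE, adjusted p = 0.437 from edgeR), 0.08 without gas 1 and 0.71 without gas 3. RFC2, a small subunit of the clamp loader, had 81.8, 75.6 and 61.5 CPM in the gas libraries and 53.6, 56.0 and 51.5 CPM in the dCAMP libraries, with no overlap and a log2 fold change of −0.44 ± 0.13 (SE). The large subunit RFC1 and the small subunits RFC3, RFC4 and RFC5 had log2 fold changes of 0.33, 0.17, 0.01 and −0.10, the last with a range of −0.20 to −0.08 without 1 library. Those of RFC1, RFC3 and RFC4 were 0.11, −0.12 and −0.16 without gas 1 and 0.48, 0.31 and 0.05 without gas 3.

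RPA1 to RPA3 encode the trimer that coats single-stranded DNA, and none of the 3 had an unadjusted p under 0.05. RPA1 had 76.3, 109 and 123 CPM in the gas libraries and 118, 123 and 116 CPM in the dCAMP libraries, with a log2 fold change of 0.21 ± 0.18 (SE) that was 0.02 without gas 1 and 0.31 without gas 3. RPA2 and RPA3 had log2 fold changes of 0.17 and 0.41, which were 0.01 and 0.07 without gas 1 and 0.20 and 0.79 without gas 3. Gas 1 was the lowest library for all 3 genes.

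Both genes of Okazaki fragment maturation were lower in dCAMP-treated cells, where 13.9% of all genes were. Neither passed after adjustment, and both lost the unadjusted call without gas 2 and without dCAMP 3. FEN1 also lost it without dCAMP 1. FEN1, the nuclease that trims the flap between fragments, had 113, 113 and 101 CPM in the gas libraries and 88.7, 92.8 and 87.1 CPM in the dCAMP libraries, with a log2 fold change of −0.28 ± 0.09 (SE). LIG1, the ligase that seals them, had 103, 97.5 and 86.5 CPM against 79.3, 79.2 and 70.3 CPM, with a log2 fold change of −0.33 ± 0.10 (SE). The groups did not overlap in either gene, and the FEN1 locus overlaps TMEM258.

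Of the 4 nucleotide supply genes, 1, TK1, was lower in dCAMP-treated cells (25%, against 13.9% of all genes). TK1, the thymidine kinase of the salvage pathway, was the most abundant replication gene per length, at 334 ± 52.8 FPKM (SD, n = 3) in the gas control and 254 ± 13.9 FPKM in dCAMP-treated cells. It had 632, 571 and 476 CPM in the gas libraries and 429, 451 and 406 CPM in the dCAMP libraries, with a log2 fold change of −0.39 ± 0.12 (SE), with no overlap but with gas 3 close to dCAMP 2. RRM1 and RRM2, the subunits of ribonucleotide reductase, had log2 fold changes of 0.22 and 0.01, which were −0.04 and −0.15 without gas 1 and 0.36 and 0.10 without gas 3, and TYMS, thymidylate synthase, had −0.10, with −0.18 to −0.07 without 1 library. UHRF1, which reads hemimethylated DNA behind the fork and recruits DNMT1, had 104, 92.3 and 87.8 CPM in the gas libraries and 71.4, 77.5 and 73.4 CPM in the dCAMP libraries, with a log2 fold change of −0.35 ± 0.10 (SE). Its groups did not overlap.

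**Figure D3:**
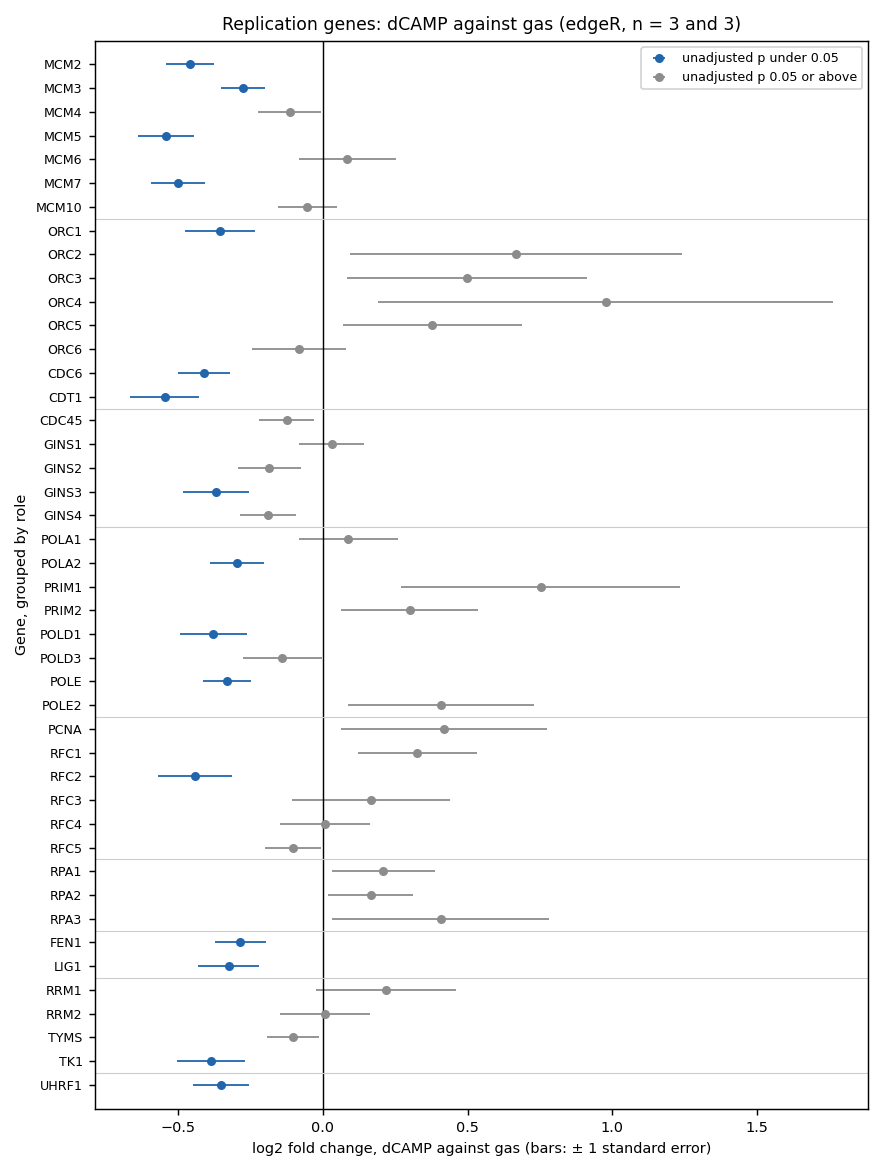
Log2 fold change of each replication gene, dCAMP against gas, with bars of ± 1 standard error from edgeR (n = 3 and 3), in blue where the unadjusted p was under 0.05. The 16 blue genes lie between −0.55 and −0.28 with short bars, and the genes with the highest values, ORC4, PRIM1 and ORC2, have the longest bars.

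The 16 lower genes and the other 28 differed in how the gas libraries were ordered. Gas 1 was the highest of the 3 gas libraries in 14 of the 16 genes and the lowest in 26 of the other 28. Over all genes tested, gas 1 was the highest gas library in 43.4% and the lowest in 43.5%. Dividing the genes by the test fixes part of this, since a gene with a low gas 1 library has overlapping groups or a wide spread, so no test was made. Relative to the dCAMP mean, the median log2 ratio of the 16 genes was 0.50, 0.37 and 0.24 in gas libraries 1, 2 and 3, and that of the 28 genes was −0.49, −0.01 and 0.08. In gas 1, 8 of the 28 genes had a log2 ratio to the dCAMP mean below −1, which is 18.2% of the 44 genes, against 21.0% of all genes tested. In each of the 16 genes all gas libraries lay above all dCAMP libraries, so their place above the dCAMP mean in gas 3 follows from that arrangement. Gene by gene the 16 and the 28 overlapped in gas 3. MCM4, among the 28, had a log2 ratio of 0.23 there, and TK1, among the 16, had 0.15. Without gas 1 the direction turned to lower in 7 of the 28 genes, MCM6, GINS1, POLA1, RFC3, RFC4, RRM1 and RRM2.

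**Figure D4:**
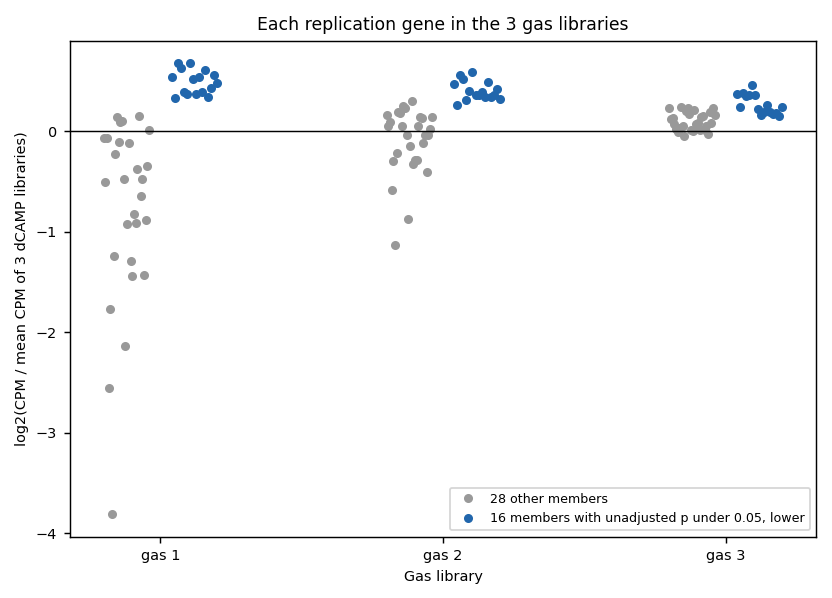
Each point is a replication gene in 1 gas library, as the log2 of its CPM over the mean CPM of the 3 dCAMP libraries; blue points are the 16 genes with an unadjusted p under 0.05 and grey points the other 28. Blue points lie above 0 in all 3 gas libraries, and grey points reach far below 0 in gas 1 and less far in gas 2. In gas 3 the grey points lie close to 0 and overlap the blue points.

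The median coefficient of variation of the 16 genes was 8.64% among the gas libraries and 4.19% among the dCAMP libraries, and that of the other 28 genes was 21.9% and 6.02%. Over all genes tested it was 16.6% and 5.89%. The median level per length was 25.2 FPKM for the 16 genes and 23.1 FPKM for the 28 genes in dCAMP-treated cells. Over all genes tested it was 7.13 FPKM, so the replication genes were more abundant than the genes whose shares they are set beside. The median length of the leading transcript, the one with the most counts, was 2556.5 bases and 2114.5 bases, and the median locus was 20661 and 30973.5 bases long. These are descriptions of genes divided by their values and were not tested.

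Of the 44 genes, 19 have 1 transcript in the deposited transcript table and 25 have several, and in 22 of the 25 the same transcript had the most counts in every library. The exceptions were MCM10, ORC2 and ORC3. With the counts of each group pooled, the share of the leading transcript differed by at least 10 percentage points in 3 genes, which were chosen after their values were seen. Pooling gives the deeper libraries more weight, and gas 1 held few counts of ORC4. For ORC1, its 3193-base transcript held 71.1%, 60.1% and 36.03% of its counts in gas 1, gas 2 and gas 3, against 69.9%, 76.8% and 64.9% in the dCAMP libraries. For ORC2, a 3679-base transcript held 84.0%, 87.7% and 72.4% against 70.2%, 34.0% and 60.5%, and for ORC4, a 2336-base transcript held 59.1%, 87.9% and 72.5% against 62.7%, 77.8% and 54.9%. The shares spread widely within a group in all 3 genes, they are estimates of StringTie, and no test was made. The loci of 15 of the 44 genes overlap another gene, and 3 of these, MCM7, POLE and FEN1, are among the 16 lower genes.

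Other genes of the pathway were read from lists that do not share a gene with the 44. Of the 27 other replication fork and origin firing genes, 5 were lower with an unadjusted p under 0.05 and 0 higher (18.5% against 13.9% of all genes for lower, and 6.81% for higher), namely RECQL4, RNASEH2C and, named after their values were seen, TIMELESS, CHTF18 and CHTF8. The median log2 fold change of the 27 genes was 0.24, and it was 0.03 without gas 1 and 0.41 without gas 3. The 0 rests on gas 3, since without it 6 of the 27 genes were lower and 6 higher by edgeR's adjusted p (18.1% and 15% of all genes). RECQL4, a helicase of origin firing, had a log2 fold change of −0.49 ± 0.11 (SE) and RNASEH2C, a subunit of the nuclease that removes ribonucleotides, −0.47 ± 0.18 (SE). At the other end were ATAD5, which unloads PCNA, with 3.41, 24.0 and 43.3 CPM in the gas libraries and 43.4, 49.0 and 43.7 CPM in the dCAMP libraries, and DBF4, the activator of the CDC7 kinase, with 9.72, 26.7 and 54.4 CPM against 52.7, 54.9 and 54.4 CPM. Gas 1 was again the lowest library in both, and their log2 fold changes of 0.94 and 0.83 were 0.42 and 0.40 without it and 1.68 and 1.52 without gas 3. GMNN, the inhibitor of CDT1, had 22.3, 51.0 and 54.5 CPM in the gas libraries and 46.9, 53.2 and 50.5 CPM in the dCAMP libraries, with a log2 fold change of 0.24 ± 0.32 (SE) that was −0.09 without gas 1 and 0.41 without gas 3.

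The histone chaperones and methylation maintenance genes included 4 of 7 that were lower with an unadjusted p under 0.05 (57.1% against 13.9% of all genes), namely CHAF1A, ASF1B and, named after their values were seen, CHAF1B and DNMT1. CHAF1A, the large subunit of the factor that places histones behind the fork, had a log2 fold change of −0.32 ± 0.10 (SE) and ASF1B, its histone donor, −0.35 ± 0.10 (SE). HELLS and ASF1A had 0.68 and 0.59, with standard errors of 0.46 and 0.33, with 0.28 and 0.28 without gas 1 and 1.12 and 0.88 without gas 3. Of the 22 other nucleotide supply enzymes analysed, 6 were lower (27.3% against 13.9% of all genes) and 0 higher (against 6.81%). By the adjusted p without gas 3, 8 were lower and 5 higher, against 18.1% and 15% of all genes. By the unadjusted p without gas 1, 6 were lower and 2 higher, against 11.8% and 8.75%. DCTPP1, which hydrolyses unwanted dCTP, had 59.4, 52.3 and 46.7 CPM in the gas libraries and 34.5, 40.1 and 34.9 CPM in the dCAMP libraries, with no overlap and a log2 fold change of −0.53 ± 0.13 (SE). CAD, which starts pyrimidine synthesis, had −0.42 ± 0.10 (SE), or −0.68 after the correction for gene length. RRM2B, a p53-induced subunit of ribonucleotide reductase, and PPAT, which starts purine synthesis, had log2 fold changes of 0.80 and 0.79 with standard errors of 0.43 and 0.48, and gas 1 was the lowest library in both. These values were 0.42 and 0.40 without gas 1 and 1.23 and 1.40 without gas 3.

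The G1/S regulators had 3 genes lower and 3 higher of 24 with an unadjusted p under 0.05, or 12.5% in each direction against 13.9% and 6.81% of all genes, so the share of lower genes was near that of all genes. By the adjusted p without gas 3, 3 were lower and 5 higher, against 18.1% and 15% of all genes. By the unadjusted p without gas 1, 3 were lower and 2 higher, against 11.8% and 8.75%. The lower genes were E2F2, E2F4 and CDK4, and the higher genes were TFDP2, RBL2 and CCNE2; CDK4 and the 3 higher genes were named after their values were seen. E2F2, an activator of S phase genes, had 7.91, 6.72 and 5.24 CPM in the gas libraries and 4.21, 4.39 and 3.098 CPM in the dCAMP libraries, with a log2 fold change of −0.76 ± 0.21 (SE) that was −0.38 on the log2 of FPKM plus 1. E2F4, which acts mainly in repressor complexes, had −0.49 ± 0.11 (SE). E2F1 had 34.5, 30.5 and 28.1 CPM in the gas libraries and 27.3, 27.3 and 21.6 CPM in the dCAMP libraries, with no overlap by a narrow margin and a log2 fold change of −0.29 ± 0.14 (SE). RBL2, the pocket protein p130 that holds E2F genes silent in resting cells, had 46.0, 66.9 and 83.6 CPM against 99.3, 96.0 and 104 CPM. Its log2 fold change was 0.61 ± 0.21 (SE), with 0.39 without gas 1 and 0.78 without gas 3. TFDP2 and CCNE2 had log2 fold changes of 0.39 and 0.58, with 0.28 and 0.39 without gas 1 and 0.41 and 0.79 without gas 3. RB1 and E2F5 had 0.90 ± 0.46 (SE) and 0.70 ± 0.34 (SE), with 0.51 and 0.40 without gas 1 and 1.42 and 1.05 without gas 3. In both, all dCAMP libraries lay above all gas libraries, as in 25% of the list and 19% of all genes. In 29.2% of the list, against 20.9% of all genes, all dCAMP libraries lay below. CCNE1, the cyclin of the G1/S transition, had 0.13 ± 0.13 (SE), or 0.00051 without dCAMP 2. CDKN1A, the CDK inhibitor p21, had 0.09 ± 0.12 (SE), with 806, 657 and 612 CPM in the gas libraries and 772, 682 and 752 CPM in the dCAMP libraries. The CDKN1A value was 0.19 without gas 1 and −0.04 without gas 3.

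The replication checkpoint list had 2 of 11 genes lower, RAD9A and ATRIP, and 0 higher with an unadjusted p under 0.05, and the 18.2% that were lower stand near the 13.9% of all genes. In 6 of the 11 genes (54.5%, against 19% of all genes) all dCAMP libraries lay above all gas libraries, and in 3 (27.3%, against 20.9%) they lay below. By the adjusted p without gas 3, 3 genes were lower and 5 higher, against 18.1% and 15% of all genes. RAD9A, of the clamp that signals stalled forks, had a log2 fold change of −0.42 ± 0.12 (SE) and ATRIP, the partner of the kinase ATR, −0.28 ± 0.10 (SE). WEE1, the kinase that holds CDK1 and CDK2 inactive, had 19.4, 40.7 and 59.8 CPM in the gas libraries and 73.5, 68.9 and 71.0 CPM in the dCAMP libraries, with no overlap and a log2 fold change of 0.83 ± 0.37 (SE). ETAA1, an activator of ATR, had 1.10 ± 0.67 (SE). Without gas 1 these were 0.49 and 0.62, and without gas 3 they were 1.20 and 1.98. The list's median log2 fold change was 0.62, with 0.27 without gas 1 and 0.94 without gas 3.

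The mitosis genes, which peak later in the cell cycle, had a share of lower genes close to that of the replication genes. Of 27 genes, 9 were lower with an unadjusted p under 0.05 (33.3% against 13.9% of all genes) and 0 higher (against 6.81%). Without gas 3, 8 were lower and 2 higher by the adjusted p, against 18.1% and 15% of all genes. The median log2 fold change was −0.03, with −0.14 without gas 1 and 0.04 without gas 3. CDC20, the activator of the anaphase-promoting complex, had 215, 201 and 172 CPM in the gas libraries and 124, 145 and 119 CPM in the dCAMP libraries, with a log2 fold change of −0.60 ± 0.12 (SE). INCENP, of the chromosomal passenger complex, had −0.44 ± 0.10 (SE). CENPE and TTK, which act at kinetochores, had 0.88 and 0.81, with standard errors of 0.58 and 0.52 and their lowest levels in gas 1. Without gas 1 they had 0.44 and 0.40, and without gas 3 they had 1.65 and 1.49. A difference between the replication and mitosis lists was not tested.

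**Figure D5:**
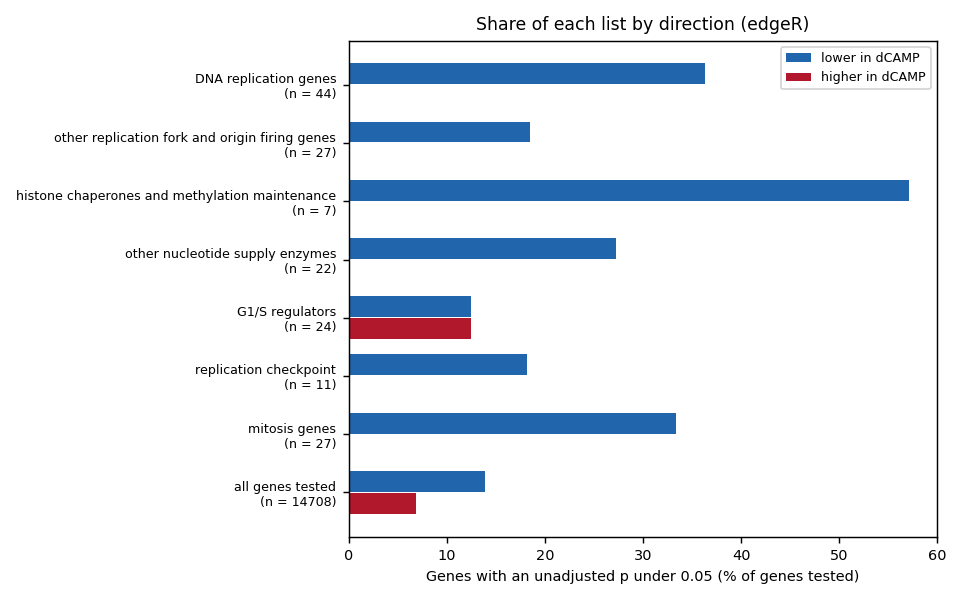
Percent of the genes tested in each list, and of all 14708 genes tested, with an unadjusted p under 0.05 in edgeR, drawn by direction. The replication genes stand at 36.4% lower and 0 higher beside 13.9% and 6.81% of all genes, and the list of 7 histone chaperones and methylation maintenance genes has the highest share of lower genes.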

How the data were processed

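Per the labels and the study's methods, RNA was extracted with an RNeasy kit, and TruSeq stranded mRNA libraries were sequenced. The authors trimmed the reads (FastQC 0.11.7 and Trimmomatic 0.38 are named in the submitters' processing notes), mapped them to CanFam3.1 with HISAT2 2.1.0 and summarized known transcripts with StringTie 2.1.3b. The deposited read counts are whole numbers without normalization, and the deposited FPKM values carry the scaling of the authors to transcript length and depth. No use was made of 12 TPM columns. The counting of overlapping genes is not given in the sources used here.

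The analysis of counts ran in R 4.3.3 with edgeR 4.0.16 (TMM, filterByExpr, quasi-likelihood test, prior count of 2), limma 3.58.1 and DESeq2 1.42.0, with p-values adjusted over the genes tested in each fit, 14708 in the main comparison and 11627 in DESeq2. The standard error (SE) is the log2 fold change divided by the root of F. A lowess curve of span 0.3 was used for the length correction. Other normalizations, filters and tools, the replicate number as a block, and the omission of each library were tried. The steps were tested on simulated data. List genes were matched by symbol, and PAICS, GART and ADSS2 by gene ID in the reference table; DTYMK was not analysed here. Values per library are given for genes with an unadjusted p under 0.05, the 5 largest changes in each direction and 1 gene per remaining role; of the other lists, the 2 highest and 2 lowest genes are named. A further list gene is not reported here. The genes and lists were chosen with earlier results of these data known. Promoter and protein motifs were not searched, since no sequences were used here.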

Additional observations from a re-analysis of the deposited data

How the results depend on the processing

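The number of replication genes with an unadjusted p under 0.05 was 16, all lower, and the same 16 genes passed with both DESeq2 settings, RLE factors, no filter on low counts, at least 10 counts in every library, both FPKM scales and the length correction. It was 34 (25 lower, 9 higher) with voom and sample quality weights, and 8 to 20 in the fits without 1 library, with 8 without dCAMP 3 and with 16 lower and 4 higher genes without gas 3. After adjustment, edgeR called 0 replication genes at 0.05, against 16 with an unadjusted p under 0.05. The adjusted count was 6 with DESeq2, 5 with its setting that drops genes at 0 in any library, and 33 with voom, and 0 to 16 without 1 library, with 16 without gas 3. The number of replication genes whose groups did not overlap was 16, all lower, where 20.9% of all genes were lower and 19% higher. It was 22, all lower, under upper-quartile factors, and 16 to 30 without 1 library. The 30 were 18 lower and 12 higher without gas 3, against 32.6% and 35.9% of all genes. For the other settings the share of all genes is not given here, so those counts are not read against it. The median log2 fold change was −0.10, with −0.19 under upper-quartile factors, where the median of all genes moved from 0.03 to −0.06, −0.16 with voom and −0.16 to −0.07 without 1 library. Over all genes tested, 3040 had an unadjusted p under 0.05 (2039 lower, 1001 higher), with 9541 under voom (4467 lower, 5074 higher) and 1024 to 7374 without 1 library; the split was 1738 lower and 1744 higher on the log2 of FPKM plus 1, and 1739 and 1575 on that of FPKM plus 0.1. The causes were not tested.

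The replicate numbers are shared between the groups, and the labels do not say whether they pair the libraries. The deviations of same-numbered libraries correlated at 0.13, 0.02 and 0.05 across genes. Gas 1 and gas 2 correlated best with the dCAMP library of the same number, but gas 3 correlated best with dCAMP 2, at 0.09. These low values do not settle whether the libraries were paired. With the number as a replicate block, 16 replication genes had an unadjusted p under 0.05 and all genes tested had 2775 (1369 lower, 1406 higher). With the block and the length correction there were 15 lower genes, without GINS3, and PRIM1 was higher. Over all genes tested, 1366 were lower and 1645 higher in that fit.

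Other settings that moved a named gene's log2 fold change by over 1.5 times, where it was over 0.25 in size, were FPKM plus 0.1 for ORC2 (1.01), ORC4 (1.61) and ATAD5 (1.48), the replicate block for ORC4 (1.57) and ATAD5 (1.47), voom for ORC3 (0.31), ORC5 (0.22), PRIM2 (0.14) and PCNA (0.27), the length correction for RFC1 (0.16), and that correction with the block for ORC4 (1.55).

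Directions turned in genes with a log2 fold change of at most 0.24 in size. With voom, MCM6 was at −0.0541, GINS1 at −0.0692, RFC3 at −0.0567, RFC4 at −0.142, RRM2 at −0.0455 and GMNN at −0.0204. With upper-quartile factors, GINS1 was at −0.0549, RFC4 at −0.0683, RRM2 at −0.066 and CDKN1A at −0.00902. DESeq2 gave −0.00557 for RFC4 and −0.00374 for RRM2, and its stricter setting −0.00556 and −0.00374. A minimum of 10 counts gave −0.0131 and −0.0118, and no filter gave −0.000582 for RFC4. The length correction gave −0.0987 for POLA1 and −0.0589 for RRM2, and −0.0925 and −0.0519 with the replicate block. Without 1 library, MCM6 ranged from −0.103 to 0.156, GINS1 from −0.0601 to 0.0713, POLA1 from −0.0875 to 0.194, RFC3 from −0.117 to 0.306, RFC4 from −0.163 to 0.0661, RRM1 from −0.0413 to 0.355, RRM2 from −0.151 to 0.102, GMNN from −0.0883 to 0.411 and CDKN1A from −0.0402 to 0.194.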
